A study of Homo sapiens with 6 samples.

Results

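The genes described here are 10 transcripts of the RAS-RAF-MEK-ERK (MAPK) pathway, chosen by symbol among 58395 genes in the deposited table: the RAS GTPase gene NRAS, the RAF kinase gene BRAF, and DUSP4, DUSP6, SPRY2, SPRY4, SPRED1, ETV4, ETV5 and PHLDA1. They were measured by polyadenylated RNA sequencing in 3 CD20-positive and 3 CD20-negative libraries. Both fractions were sorted, by antibody staining for CD20 (the B-cell surface protein encoded by MS4A1), from melanospheres, that is, cells grown as floating spheres without attachment, of cells labelled M14, an established human melanoma line. The replicates carry the numbers 1 to 3 in each fraction. Nothing in the labels states that they were separate cultures, so the p-values describe the variation among these libraries, possibly technical variation only. Sorting, 1 cell line and growth in spheres are common to both fractions. In sorted bulk samples, fewer cells with a transcript and less of it per cell cannot be told apart.

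RAS proteins pass signals from growth factor receptors to RAF kinases, which activate MEK and then ERK. Active ERK raises the transcripts of its own inhibitors: dual-specificity phosphatases (DUSP) that remove the activating phosphates from ERK, and Sprouty (SPRY) and SPRED proteins that act on RAS and RAF. Transcripts of the ETS factors ETV4 and ETV5 also depend on ERK, and such feedback transcripts are widely used as a readout of pathway output in melanoma, where activating mutations of BRAF or NRAS are common and M14 is known as a BRAF-mutant line. Gene-level values do not tell alleles apart, so they say nothing of mutations here.

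The libraries held 15651172 to 17479732 recovered fragments in the CD20-positive fraction and 16666544 to 17915936 in the CD20-negative fraction. Mitochondrially encoded genes took 11.9 to 20.6% of fragments in CD20-positive and 4.25 to 5.73% in CD20-negative libraries, and cytosolic ribosomal protein genes took 2.82 to 4.49% in CD20-positive and 7.03 to 7.36% in CD20-negative libraries. MS4A1 measured 1.24, 0.966 and 1.28 FPKM (fragments per kilobase of exon, scaled by the authors' own library size) in CD20-positive and 0.225, 0.263 and 0.403 FPKM in CD20-negative libraries, so the fractions did not overlap for the sort marker. Its mean of 0.729 FPKM lay below the 1 FPKM needed for a test, so it was not tested. The values rest on about 21 to 98 fragments. These numbers are approximate, since the values did not all fall on whole fragments. The labelled cell type was only in part borne out by its markers: 4 of 12 melanocytic genes reached a mean of 1 FPKM, SOX10, MLANA, TYR, DCT and S100B stayed under 1 FPKM in every library, and PAX3 and EDNRB were listed at 0. A list of 10 epithelial genes was mixed: the keratin genes KRT8 and KRT18 lay between 145.7 and 276 FPKM, whereas GRHL2 and ESRP1 were listed at 0 and CDH1, KRT5 and KRT14 stayed under 1 FPKM in every library. Its sum, 509 to 646 FPKM in the CD20-positive libraries and 414 to 556 FPKM in the CD20-negative libraries, was mostly keratin. KRT17 was higher in CD20-positive cells in each pair and was called with the block (limma, adjusted p = 0.0184, and 0.752 without it). The part of these markers in the results below was not tested. Summed over the 12 genes, the melanocytic level was 26.2 to 42.2 FPKM in the CD20-positive libraries and 19.5 to 28.1 FPKM in the CD20-negative libraries. PMEL, a melanosome protein gene, was the most abundant of them and was called higher in CD20-positive cells in a fit that adds replicate number as a block (limma, adjusted p = 0.0117, and 0.613 without it). The higher sum was mostly PMEL. The other tested genes of the list, MITF, RAB27A and GPNMB, had log2 changes of -0.07, -0.06 and 0.14 and were not called in either fit. GPNMB was higher in pairs 1 and 2 and lower in pair 3. The B-cell list had 2 of 10 genes at a mean of 1 FPKM or more, and its summed level was 6.24 to 8.48 FPKM in the CD20-positive libraries and 4.11 to 7.57 FPKM in the CD20-negative libraries.

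Of the 10 genes 7 had an entry in the table of RefSeq promoters used here (GRCh38.p14, 250 bases before to 50 after the start), and 3 of these are printed below: NRAS, the member with the same direction in each pair, and DUSP6 and SPRY4, feedback genes with a wide spread over the libraries. Capitals mark matches to any of the letters GGAAGT (an ETS motif), TGANTCA (AP-1), TGACGTCA (CRE) and CACGTG (E-box), searched on both strands.
NRAS, chr1:114716722-114717021, minus strand: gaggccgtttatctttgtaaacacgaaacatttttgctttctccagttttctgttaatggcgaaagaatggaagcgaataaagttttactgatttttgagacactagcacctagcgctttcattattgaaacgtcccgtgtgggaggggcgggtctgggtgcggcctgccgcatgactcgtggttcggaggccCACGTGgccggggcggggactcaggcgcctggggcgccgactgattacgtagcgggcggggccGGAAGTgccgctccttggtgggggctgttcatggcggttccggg
DUSP6, chr12:89352452-89352751, minus strand: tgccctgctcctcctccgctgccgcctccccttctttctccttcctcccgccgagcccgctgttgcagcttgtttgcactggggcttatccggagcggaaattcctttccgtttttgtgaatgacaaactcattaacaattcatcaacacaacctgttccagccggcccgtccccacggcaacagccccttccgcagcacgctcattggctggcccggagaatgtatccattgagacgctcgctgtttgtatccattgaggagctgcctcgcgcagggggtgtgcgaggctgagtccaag
SPRY4, chr5:142324198-142324497, minus strand: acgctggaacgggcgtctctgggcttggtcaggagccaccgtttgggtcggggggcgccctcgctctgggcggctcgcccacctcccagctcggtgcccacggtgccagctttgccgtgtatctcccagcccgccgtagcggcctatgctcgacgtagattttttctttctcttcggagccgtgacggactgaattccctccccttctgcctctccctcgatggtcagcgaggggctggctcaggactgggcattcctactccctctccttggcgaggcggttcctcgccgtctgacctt
In the NRAS window CACGTG began 57 bases before the start (position -57) and GGAAGT at position 7 after it. No letters searched were found in the other 6 windows, those of BRAF, DUSP6, SPRY2, SPRY4, SPRED1 and PHLDA1. Among 27305 promoters of that length 23.2% held GGAAGT, 7.76% TGANTCA, 1.98% TGACGTCA and 7.43% CACGTG. A match is a description of letters only, and a window without one says nothing about the factor.

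All 10 genes passed the filter, a 6-library mean of 1 FPKM or more, but none passed the test of a difference between the sorted fractions. In each of them more of the spread lay with the replicate number than with the fraction. Replicate number has more levels than the fraction, so it takes a larger share of random spread as well. In the fit over all 13155 tested genes (limma on log2(FPKM + 1), CD20-positive minus CD20-negative, Benjamini-Hochberg adjusted p under 0.05), 0 of the 10 were called, with an unadjusted p under 0.05 in 0 of them as well, where 0.00760% of all tested genes (1 gene) were called and 9.20% had an unadjusted p under 0.05. Voom on recovered fragments also called 0 of the 10. For all 10 genes the values of the fractions overlapped, while 15.0% of all tested genes showed no overlap, 6.14% with CD20-positive lower. Their median log2 change was 0.10, against 0.00025 over all tested genes. With each library scaled to its FPKM total, which put the median of all tested genes at -0.41, the 7 positive changes among them, those of DUSP6, SPRY2, SPRY4, SPRED1, ETV4, ETV5 and PHLDA1, turned negative. In a paired fit, which adds replicate number to the model as a block, 1 of the 10 was called, NRAS, which was lower in CD20-positive cells. That fit called 5.83% of all tested genes, 2.64% lower and 3.19% higher.

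**Figure D1:**
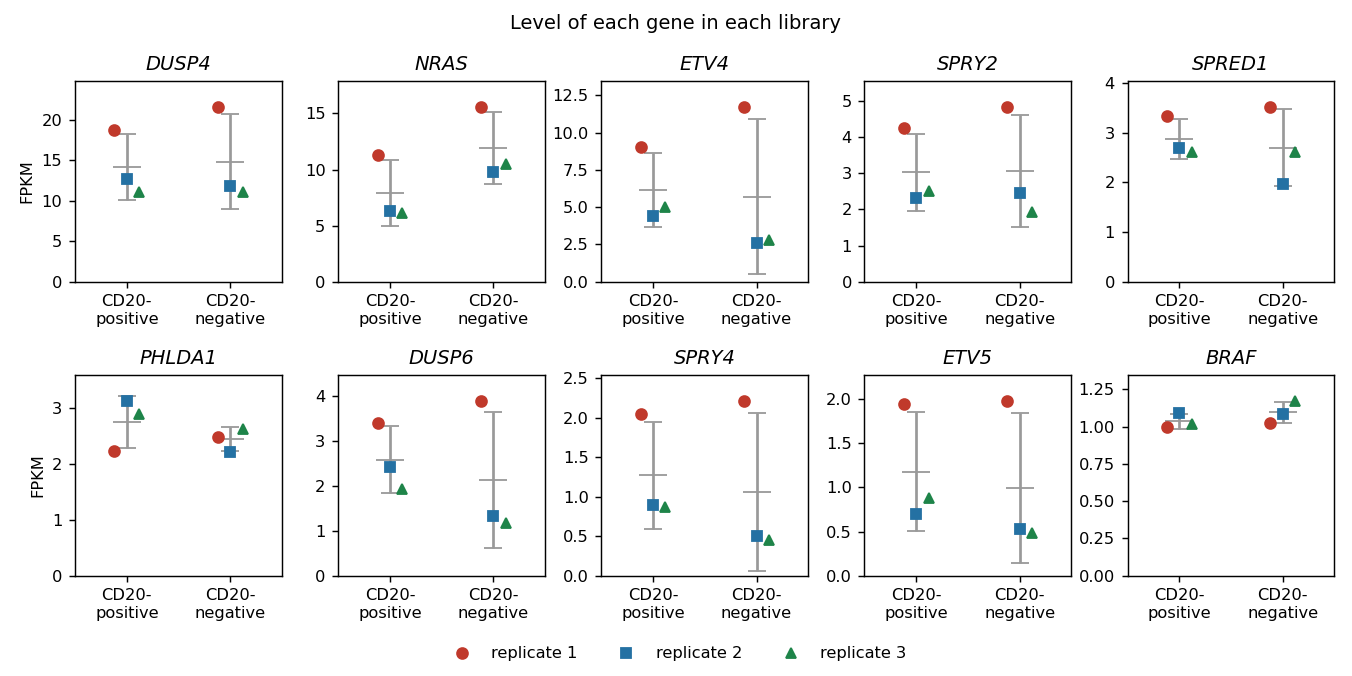
FPKM of the 10 genes (vertical axes, from 0) in each library of the CD20-positive and CD20-negative fractions; colours and shapes give the replicate number, grey bars the mean ± SD of 3 libraries. Both libraries of replicate 1 lie above the other 4 for every gene except BRAF and PHLDA1.

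Per length of all annotated exons of a gene, DUSP4 was the most abundant of the 10 with a mean of 14.5 ± 4.50 FPKM (SD over 6 libraries), followed by NRAS at 9.92 ± 3.50 and ETV4 at 5.93 ± 3.65 FPKM. These 3 kept that order in 6 of 6 libraries, and ETV4 also lay above SPRY2 in 6 of 6. SPRY2 (3.04 ± 1.19 FPKM), SPRED1 (2.78 ± 0.560), PHLDA1 (2.60 ± 0.362) and DUSP6 (2.35 ± 1.10) did not differ beyond their spread and changed order between libraries. DUSP6 lay above SPRY4 in 6 of 6 libraries, while SPRY4 (1.16 ± 0.772 FPKM), ETV5 (1.09 ± 0.695) and BRAF (1.07 ± 0.0648) could not be ordered. The fewest fragments behind a value were 55, for ETV5 in CD20-negative replicates 2 and 3, and the most were 2941, for DUSP4 in CD20-negative replicate 1. The order depends on the annotated length, which is not the length of any 1 transcript. BRAF had 353 to 543 fragments over 23432 exon bases, and SPRY2 112 to 275 over 3038.

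NRAS (ENSG00000213281, GRCh38 chromosome 1, 114704469 to 114716894, minus strand) encodes the GTPase that is mutated in many melanomas without a BRAF mutation. It measured 11.3, 6.35 and 6.11 FPKM in CD20-positive replicates 1, 2 and 3, against 15.6, 9.74 and 10.5 FPKM in CD20-negative replicates 1, 2 and 3. Within each replicate number the CD20-positive library was the lower one, with ratios of 0.727, 0.652 and 0.584, but CD20-positive replicate 1 lay above CD20-negative replicates 2 and 3. The means were 7.92 ± 2.93 FPKM in the CD20-positive cells and 11.9 ± 3.17 FPKM in the CD20-negative cells (SD, n = 3 each). The log2 change was -0.55 ± 0.27 (SE; limma, adjusted p = 0.588), and in the paired fit the same change had an SE of 0.13 (adjusted p = 0.0345). The mitochondrial share was the higher one in the CD20-positive library of each pair, and its part in the NRAS value was not tested further than by scaling. With each library scaled to its FPKM total outside the mitochondrial genome the NRAS change was -0.46 (limma, adjusted p = 0.488 without the block). With each library scaled to its whole FPKM total, which includes the mitochondrial genes, it was -1.03 and was called without the block (adjusted p = 0.0398). That scaling put the median change of all tested genes at -0.41, and 1351 of 13239 genes were called lower and 27 higher. At the filter of a mean of 10 FPKM NRAS was not tested, since its mean lay below.

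BRAF (ENSG00000157764, chromosome 7, 140719327 to 140924928, minus strand) encodes the RAF kinase most often mutated in melanoma. Its level varied least of the 10, with 0.997, 1.09 and 1.02 FPKM in the CD20-positive libraries and 1.03, 1.09 and 1.17 FPKM in the CD20-negative libraries. All 6 values lay within a ratio of 1.17 of each other, and the fractions overlapped (log2 change -0.04 ± 0.14 SE, limma, adjusted p = 0.957). That level rests on 353 to 543 fragments over 23432 annotated exon bases, of which 1239 are shared with NDUFB2, a gene on the other strand with a mean of 14.01 FPKM. Per the labels' protocols, the kit was TruSeq version 2, which does not mark strand, so the BRAF value is uncertain there. ARAF, which encodes another RAF kinase and was chosen after its values were seen, was higher per length of annotated exons, which is 3535 bases for ARAF. It measured 46.3, 33.3 and 40.2 FPKM in the CD20-positive libraries and 36.3, 42.2 and 35.6 FPKM in the CD20-negative libraries, which overlapped, with no call in either fit.

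**Figure D2:**
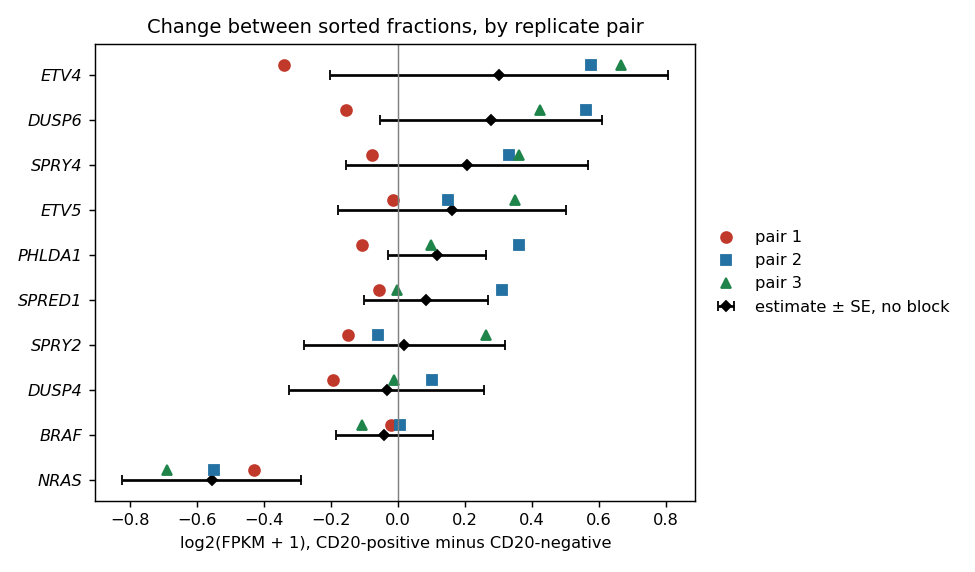
Difference of log2(FPKM + 1), CD20-positive minus CD20-negative (horizontal axis), for each of the 10 genes: black diamonds and bars are the limma estimate ± SE without the block, coloured symbols the difference within each replicate number. NRAS is negative in all 3 pairs, from -0.43 to -0.69, and ETV4, DUSP6, SPRY4, ETV5 and PHLDA1 are negative in pair 1 and positive in pairs 2 and 3.

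Among the feedback phosphatases, DUSP6 (ENSG00000139318, chromosome 12, 89347232 to 89353271), the cytoplasmic ERK phosphatase, measured 3.39, 2.42 and 1.93 FPKM in the CD20-positive libraries and 3.88, 1.32 and 1.18 FPKM in the CD20-negative libraries. Both replicate 1 libraries were the highest, and in replicates 2 and 3 the CD20-positive libraries were above the CD20-negative ones. The mean was 2.58 ± 0.743 FPKM in the CD20-positive cells and 2.13 ± 1.52 FPKM in the CD20-negative cells (log2 change 0.28 ± 0.33 SE, limma, adjusted p = 0.83). It shares 1875 exon bases with an antisense gene, AC024909.2, whose mean was 0.129 FPKM. DUSP4 (ENSG00000120875, chromosome 8, 29333064 to 29350668), a nuclear phosphatase of the same family, measured 18.7, 12.8 and 11.1 FPKM in the CD20-positive libraries and 21.6, 11.8 and 11.1 FPKM in the CD20-negative libraries. Its replicate 2 and 3 libraries lay close together whatever the fraction (log2 change -0.03 ± 0.29 SE, adjusted p = 0.982).

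The Sprouty genes encode inhibitors of receptor signalling to RAS. SPRY4 (ENSG00000187678, chromosome 5, 142310427 to 142326455) measured 2.05, 0.893 and 0.867 FPKM in the CD20-positive libraries and 2.21, 0.504 and 0.454 FPKM in the CD20-negative libraries, the widest spread of the 10 with 4.87 times between the highest and the lowest library. In replicates 2 and 3 the CD20-positive level was 1.77 and 1.91 times the CD20-negative one, whereas in replicate 1 the ratio was 0.925 (log2 change 0.21 ± 0.36 SE, adjusted p = 0.898). SPRY2 (ENSG00000136158, chromosome 13, 80335976 to 80340951) measured 4.25, 2.30 and 2.50 FPKM in the CD20-positive libraries and 4.82, 2.44 and 1.91 FPKM in the CD20-negative libraries. Pairs 1 and 2 were lower and pair 3 higher, with a log2 change of 0.02 ± 0.30 (SE, adjusted p = 0.991). SPRED1 (ENSG00000166068, chromosome 15, 38252326 to 38357249), which brings the RAS inactivator neurofibromin to the membrane, measured 3.33, 2.68 and 2.60 FPKM in the CD20-positive libraries and 3.51, 1.97 and 2.61 FPKM in the CD20-negative libraries. Its fractions overlapped, and pair 3 was nearly equal (log2 change 0.08 ± 0.18 SE, adjusted p = 0.921).

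ETV4 and ETV5 encode ETS transcription factors of the PEA3 group. ETV4 (ENSG00000175832, chromosome 17, 43527844 to 43579620) measured 9.03, 4.41 and 5.02 FPKM in the CD20-positive libraries and 11.7, 2.63 and 2.79 FPKM in the CD20-negative libraries. Its ratio of CD20-positive to CD20-negative was 0.772, 1.68 and 1.80 in pairs 1, 2 and 3, and it had the widest SE of the 10 genes (log2 change 0.30 ± 0.50, adjusted p = 0.893). ETV5 (ENSG00000244405, chromosome 3, 186046308 to 186110318) measured 1.95, 0.699 and 0.883 FPKM in the CD20-positive libraries and 1.98, 0.532 and 0.479 FPKM in the CD20-negative libraries, which is nearly equal in pair 1, and in pairs 2 and 3 the CD20-positive level was 1.31 and 1.84 times the CD20-negative one (log2 change 0.16 ± 0.34 SE, adjusted p = 0.918). PHLDA1 (ENSG00000139289, chromosome 12, 76025447 to 76033932), a pleckstrin homology-like protein gene used in MAPK activity scores, measured 2.24, 3.13 and 2.89 FPKM in the CD20-positive libraries and 2.49, 2.22 and 2.64 FPKM in the CD20-negative libraries. Unlike those of the other feedback genes, its replicate 1 libraries were not the highest (log2 change 0.12 ± 0.14 SE, adjusted p = 0.838). Without strand, small parts of these genes cannot be told from neighbours: 68 exon bases of ETV4 overlap DHX8 (mean 10.3 FPKM), 164 of ETV5 overlap DGKG and 779 of PHLDA1 an antisense gene listed at 0.

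Except in PHLDA1, the spread that did appear in the feedback genes mostly followed the replicate number. For 8 of the 10 genes, all but BRAF and PHLDA1, both replicate 1 libraries were above the other 4, a pattern seen in 23.5% of all tested genes (3094 of 13155), with both below in another 20.8%. This pattern was noticed in the data and is given as a description, without a test. The level in replicate 1 over the mean of replicates 2 and 3 was 2.33 times in CD20-positive and 4.62 times in CD20-negative cells for SPRY4, and 1.92 times in CD20-positive and 4.32 times in CD20-negative cells for ETV4. ETV5 had 2.47 times in CD20-positive and 3.92 times in CD20-negative cells, and DUSP6 1.56 times in CD20-positive and 3.11 times in CD20-negative cells. For these 4 genes the ratio was smaller in the CD20-positive fraction, a difference that was not tested. In CD20-positive and CD20-negative cells DUSP4 (1.57 and 1.88), SPRY2 (1.77 and 2.21), SPRED1 (1.26 and 1.53) and PHLDA1 (0.744 and 1.03) had the same order. NRAS showed the other order, with 1.81 times in CD20-positive and 1.54 times in CD20-negative cells, as did BRAF (0.944 and 0.909). The share of all tested genes with either order was not counted.

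**Figure D3:**
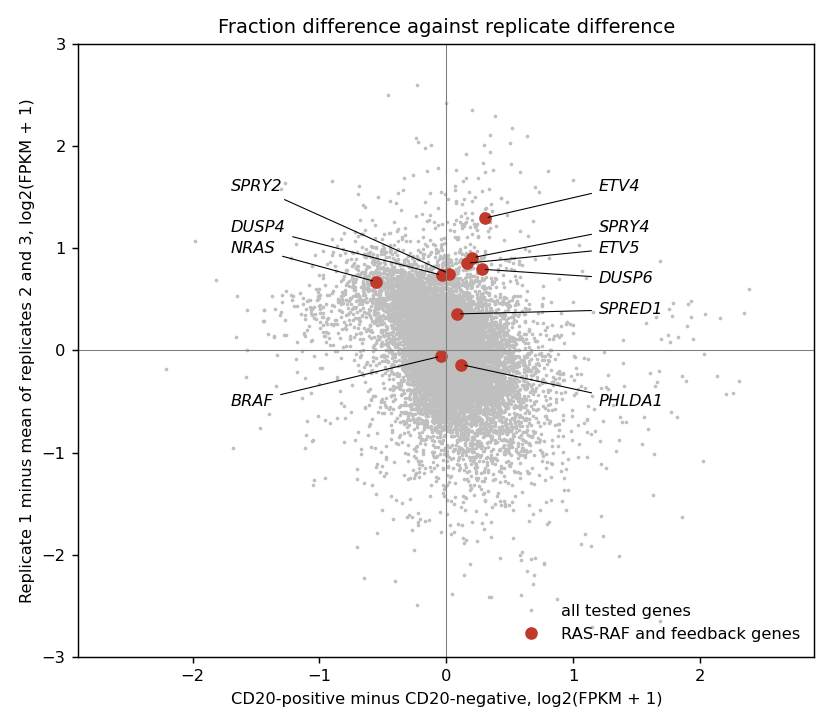
Each of 13155 tested genes by its difference between fractions (horizontal axis, CD20-positive minus CD20-negative) and its difference between replicate 1 and the mean of replicates 2 and 3, averaged over the fractions (vertical axis), both of log2(FPKM + 1); 1 gene lies outside the axes. ETV4 stands at 1.30 on the vertical axis and DUSP4, DUSP6, SPRY2, SPRY4, ETV5 and NRAS at 0.67 to 0.91, while NRAS alone of the 10 stands far from 0 on the horizontal axis.

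On log2(FPKM + 1), the sum of squares over the 6 libraries was divided between the fraction, the replicate number and a remainder. Since replicate number has more levels than the fraction, these shares are not on equal terms within a gene. Replicate number took a median of 81.1% over the 10 genes and 51.7% over all tested genes, and the fraction took 5.11% and 17.3%. DUSP4 had 96.9% with the replicate number and 0.225% with the fraction, and 1.73% of all tested genes had a larger replicate share than DUSP4. NRAS stood apart with 42.7% from the fraction, 55.7% from the replicate number and a remainder of 1.57%. PHLDA1 had the largest remainder, 53.4%, against 26.9% with the replicate number and 19.7% with the fraction. BRAF had 42.0% with the replicate number, 24.5% with the fraction and 33.5% in the remainder. DUSP4, DUSP6, SPRY2, SPRY4, ETV4 and ETV5, grouped after their values were seen, correlated with each other at r = 0.90 to 0.99 over the 6 libraries (15 pairs of genes), which share the replicate numbers. Outside that group, SPRED1 correlated with these 6 genes at 0.788 to 0.915 and PHLDA1 at -0.46 to -0.07. BRAF correlated with the other 9 at -0.80 to 0.23.

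**Figure D4:**
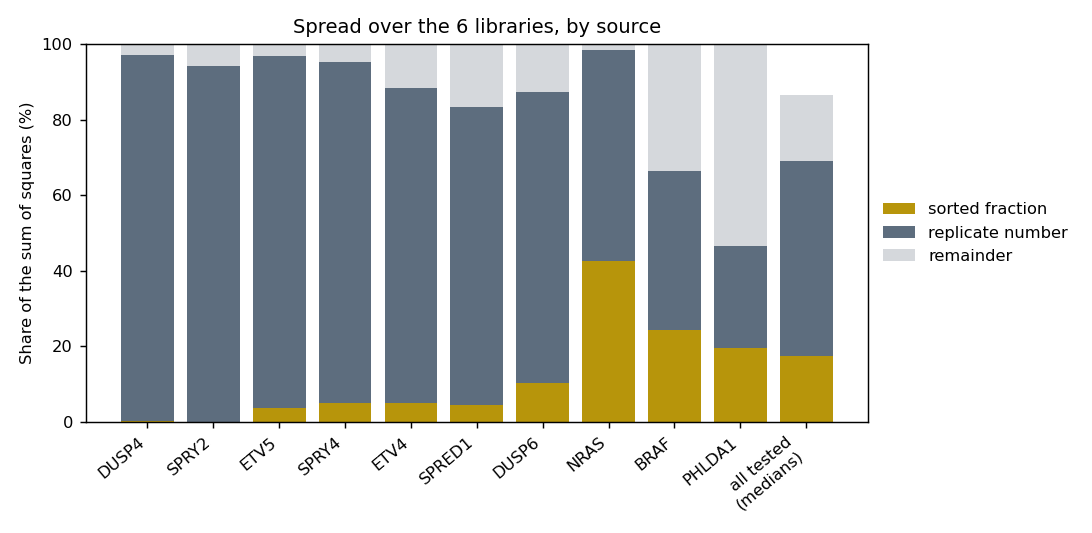
Share of the sum of squares of log2(FPKM + 1) over 6 libraries (%, stacked bars) from the sorted fraction, the replicate number and the remainder, for each gene and as medians over all tested genes, which need not add up to the whole. The replicate share is above the median of all tested genes for each gene except BRAF and PHLDA1, and NRAS has the largest fraction share.

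The genes whose pattern over the 6 libraries was most like that of DUSP6, by Pearson correlation among 10695 tested protein-coding genes, were BORCS8 (r = 0.996), FNDC3B (r = 0.990) and CEMIP2 (r = 0.988). FNDC3B measured 7.52, 6.24 and 5.30 FPKM in the CD20-positive libraries and 8.02, 4.67 and 4.74 FPKM in the CD20-negative libraries. BORCS8 shares 363 exon bases with RFXANK on the other strand, so its value is uncertain. For BRAF the nearest were CDYL2 (r = 0.986), PDCD7 (r = 0.983) and PCLAF (r = 0.977). With 6 points that share 3 replicate numbers, 57 genes reached r of at least 0.95 with DUSP6 and 16 with BRAF.

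Some immediate-early genes known to rise when tissue is dissociated also lay high in replicate 1. Of 7 tested genes on a list of 9 such genes, 5 had both replicate 1 libraries above the other 4, namely JUN, JUNB, FOSB, ATF3 and IER2, against 23.5% of all tested genes. ZFP36 and NR4A1 were instead lowest in replicate 1 among the CD20-positive libraries and highest there among the CD20-negative ones. FOS, EGR1 and DUSP1, chosen after their values were seen, also had both replicate 1 libraries above the other 4. For EGR1 the margin was very small, with CD20-positive replicate 1 at 11.66 FPKM and CD20-negative replicate 2 at 11.65 FPKM. Only its CD20-negative replicate 1, at 35.1 FPKM, stood apart. FOS, EGR1 and DUSP1 are counted below with the other ERK-dependent and feedback genes, not on this list. JUN, chosen after its values were seen, measured 8.84, 3.03 and 3.59 FPKM in the CD20-positive libraries and 21.7, 2.34 and 2.09 FPKM in the CD20-negative libraries. The summed level of the list's 9 genes was 238, 168 and 140.5 FPKM in the CD20-positive libraries and 322, 170.4 and 115 FPKM in the CD20-negative libraries. Their part in the replicate 1 levels of the feedback genes was not tested.

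Within replicates 2 and 3 alone, 5 of the 10 genes were higher in both CD20-positive libraries than in both CD20-negative ones, namely ETV4, DUSP6, SPRY4, ETV5 and PHLDA1, which does not depend on how these replicates are paired. That was so for 29.7% of all tested genes, and NRAS was 1 of 28.8% lower in the same way. In replicate 1 the same 5 genes were lower in the CD20-positive library. Of all tested genes 12.3% were higher in CD20-positive in pairs 2 and 3 and lower in pair 1. That criterion is looser than no overlap and does depend on the pairing. The difference between replicate 1 and the others was not tested. Without both libraries of replicate 1, limma called 2 of the 8 genes then tested, where 13.2% of all 13311 genes tested were called, with 6.12% of all called higher. ETV4 was higher (log2 change 0.62, adjusted p = 0.0122) and NRAS lower (-0.62, adjusted p = 0.00839), while DUSP6 at 0.49 missed the threshold (adjusted p = 0.0686). SPRY4 and ETV5 then lay below the filter.

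None of 22 other cascade genes was called by limma on log2(FPKM + 1), without the block or with it, and 1 had an unadjusted p under 0.05. Their median log2 change was -0.04, and 3 had no overlap between fractions, a share near the 15.0% of all tested genes. PTPN11, the phosphatase SHP2 that relays receptor signals to RAS, measured 21.0, 25.1 and 20.8 FPKM in the CD20-positive libraries and 31.2, 27.9 and 28.4 FPKM in the CD20-negative libraries. The fractions did not overlap, yet the log2 change of -0.38 ± 0.14 (SE) did not pass (adjusted p = 0.503, and 0.155 in the paired fit). PTPN11 shares 111 exon bases with RPL6, a ribosomal protein gene on the other strand with a mean of 211.5 FPKM. Without strand, the PTPN11 value is uncertain there, and the part of RPL6 in it was not tested. The other RAS-family genes named by the smallest p were RRAS2, MRAS and HRAS. RRAS2 averaged 15.3 ± 2.39 FPKM in the CD20-positive cells and 18.5 ± 0.765 FPKM in the CD20-negative cells without overlap (adjusted p = 0.637), and MRAS averaged 2.17 ± 0.580 FPKM in the CD20-positive cells and 2.86 ± 0.0559 FPKM in the CD20-negative cells (adjusted p = 0.628). HRAS varied widely in both fractions, at 2.53, 0.168 and 0.580 FPKM in the CD20-positive libraries and 9.84, 5.11 and 0.382 FPKM in the CD20-negative libraries, from 5 to 343 fragments (log2 change of -1.27 at an adjusted p of 0.657 without the block and 0.455 with it). Voom with the block called HRAS lower, with a log2 change of -2.21 (adjusted p = 2.92e-07), where 712 of 13141 genes tested were called lower. PEBP1, the RAF kinase inhibitor protein, averaged 146 ± 38.7 FPKM in the CD20-positive cells and 193 ± 11.3 FPKM in the CD20-negative cells (adjusted p = 0.619), and its pseudogene PEBP1P2 had a mean of 40.6 FPKM, so the division of reads between them is uncertain. PEBP1 was called lower without both libraries of replicate 1 (log2 change -0.60, adjusted p = 0.016), where 941 of 13311 genes tested were called lower.

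Of 14 other feedback genes 9 were tested and 0 were called, without the block or in the paired fit at the filter of 1 FPKM, with 0 at an unadjusted p under 0.05, a median log2 change of -0.06 and overlapping fractions for each. Here 4 had both replicate 1 libraries above the other 4 and 4 had both below. SPRED2, a relative of SPRED1, measured 6.47, 3.15 and 2.83 FPKM in the CD20-positive libraries and 6.09, 3.23 and 3.51 FPKM in the CD20-negative libraries, the pattern of the 8 genes above. SPRY1, a relative of SPRY2, had the opposite one, at 1.80, 4.41 and 3.69 FPKM in the CD20-positive libraries and 2.27, 4.08 and 4.20 FPKM in the CD20-negative libraries, as did the ERK phosphatase gene DUSP9, at 5.51, 10.8 and 11.8 FPKM in the CD20-positive libraries and 6.42, 13.9 and 14 FPKM in the CD20-negative libraries. SPRED2, SPRY1 and DUSP9 were chosen after their values were seen. ERRFI1, an inhibitor of the EGF receptor, measured 8.30, 21.3 and 18.6 FPKM in the CD20-positive libraries and 7.49, 9.61 and 11.2 FPKM in the CD20-negative libraries, higher in each pair (log2 change 0.63 ± 0.34 SE, adjusted p = 0.628, and 0.0626 in the paired fit). ERRFI1 was called higher in other fits with the block, by voom (log2 change 0.69, adjusted p = 0.000674) and at the filter of 10 FPKM (0.63, adjusted p = 0.000717). Those fits called more genes in general, with 907 of 13141 and 447 of 4503 genes tested called higher. ERRFI1 was also called higher without CD20-positive replicate 1 (1.02, adjusted p = 0.0449) and without both libraries of replicate 1 (0.88, adjusted p = 0.00209). There 122 of 13232 and 815 of 13311 genes tested were called higher. DUSP2, DUSP5 and DUSP7, other phosphatases named by the smallest p, had log2 changes of -0.39, 0.23 and -0.16. DUSP16 was listed at 0 in each library.

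Among 12 other ERK-dependent transcripts 10 were tested, 0 were called without the block and 1 was called higher in the paired fit. That was PLAUR, the urokinase receptor, at 13.6, 13.5 and 14.05 FPKM in the CD20-positive libraries and 9.61, 8.52 and 7.61 FPKM in the CD20-negative libraries. The fractions did not overlap, and the replicate 1 libraries did not stand apart (log2 change 0.62 ± 0.13 SE, adjusted p = 0.25, and 0.0239 in the paired fit). EPHA2, an ephrin receptor, averaged 11.9 ± 2.33 FPKM in the CD20-positive cells and 8.50 ± 2.51 FPKM in the CD20-negative cells and was higher in each pair (log2 change 0.46 ± 0.22 SE, adjusted p = 0.593, and 0.0696 in the paired fit). MAFF and IER3, transcripts of the early response, had log2 changes of 0.41 and 0.55 (adjusted p = 0.613 and 0.631). The list did not move 1 way, and its median log2 change was 0.04. EGR1 and FOS, chosen after their values were seen, had changes of -0.66 and -0.34, with EGR1 lower in each pair. Neither was called without the block (limma, adjusted p = 0.794 and 0.92) or in the paired fit (0.289 and 0.464). Without both libraries of replicate 1, PLAUR, EPHA2 and MAFF were called higher (adjusted p = 0.0049, 0.0196 and 0.0432), where 6.12% of all genes tested were. CCND1, the cyclin D1 gene, chosen after its values were seen, measured 47.8, 20.1 and 17.0 FPKM in the CD20-positive libraries and 45.0, 20.9 and 21.1 FPKM in the CD20-negative libraries, so it was high in replicate 1 in both fractions, like DUSP4 and SPRED2.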

How the data were processed

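The deposited table gives 1 value per gene and library; its header names no unit. The deposited values were taken as FPKM made by the authors, because each value times the gene's exon length (GENCODE release 29) was a whole multiple of 1 step per library for 98.1 to 98.6% of low values (up to 20 reads, tolerance 0.02). The implied library sizes show that they were already scaled between libraries. HISAT2, featureCounts 1.5.0, DESeq2 and GRCh38 are named per the submitters' processing notes; strand settings were not given in those sources. Identifiers matched GENCODE for 58275 genes (120 did not), and symbols came from a newer list.

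Genes whose mean reached 1 FPKM (13155) were tested with limma 3.58.1 in R 4.3.3 (trend, robust prior) on log2(FPKM + 1), without a block, calling genes at a Benjamini-Hochberg adjusted p under 0.05; changes of low genes are understated on this scale. The script was tested on simulated data. Deviations from the fraction means correlated between same-numbered libraries at 0.675, 0.238 and 0.509 (replicates 1, 2 and 3), all above 0.1, and samples were accordingly treated as paired in a second fit. CD20-negative replicate 2 correlated with CD20-positive replicate 3 at 0.426, and CD20-negative replicate 3 with CD20-positive replicate 2 at 0.396. Both exceed the 0.238 of labelled pair 2, so replicates 2 and 3 are not told apart. That fit leaves 2 residual degrees of freedom. Named genes were the 10 members, the 5, 4 and 4 tested genes with the smallest p on the cascade, other feedback and other ERK-dependent lists, the 3 genes most like DUSP6 and BRAF, and MS4A1; others are marked. The members and lists were chosen with earlier results of these data known. Alternatives covered the pseudocount, filter, scaling, prior, block, voom and left-out libraries. Fragment numbers speak of counting error only. A gene that is withheld from this text is not reported here.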

Additional observations from a re-analysis of the deposited data

How the results depend on the processing

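The called genes, 1 without the block, became 767 with the replicate block, 2 at a pseudocount of 5, 0 with no filter or with voom, 1619 with voom and the block, 954 at the filter of 10 FPKM with the block, 1378 (27 higher, 1351 lower) with each library scaled to its FPKM total and 3917 with that scaling and the block. The genes tested numbered 13155 with the replicate block, 13141 with voom, 4503 at the filter of 10 FPKM and 13239 with the FPKM total. With that total and the block, 87 genes were called higher and 3830 lower. Leaving out libraries gave 0 to 1756 called genes, the most without both libraries of replicate 1, and 321 without CD20-positive replicate 1. Of the 10 genes 0 were called, against 1 (NRAS) with the replicate block, with voom and the block, with the FPKM total (block or not), and 0 to 2 when libraries were left out. The cascade list moved to 4 called with the FPKM total (PTPN11, PEBP1, MRAS and RRAS2, all lower), 12 with this total and the block, 1 with voom and the block (HRAS at -2.21, adjusted p = 2.92e-07, voom in limma), and 0 to 1 with libraries left out. The other feedback list moved to 1 with the FPKM total (DUSP7, lower), 3 with that and the block, 1 with voom and the block and 1 at 10 FPKM with the block, both ERRFI1 (0 to 1 with libraries left out). The other ERK-dependent list moved to 1 with the replicate block and 5 with voom and the block (4 higher, 1 lower). It moved to 3 at 10 FPKM with the block (2 higher, 1 lower) and 2, both lower, with the FPKM total and the block (0 to 3 with libraries left out). At the filter of 10 FPKM only 1 of the 10 genes, 12 cascade, 5 other feedback and 6 other ERK-dependent genes were tested.

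Scaling to the FPKM total, with or without the block, put the median change over the tested genes at -0.41, and the log2 changes of DUSP6 (-0.075), SPRY2 (-0.37), SPRY4 (-0.064), SPRED1 (-0.30), ETV4 (-0.13), ETV5 (-0.11), PHLDA1 (-0.25), DUSP5 (-0.12), EPHA2 (-0.016), BORCS8 (-0.27), FNDC3B (-0.31), CEMIP2 (-0.36) and ARAF (-0.44) turned with it. NRAS was at -1.03 there. The total outside the mitochondrial genome turned BRAF (0.015), DUSP4 (0.063), PDCD7 (0.049), CCND1 (0.013) and SPRED2 (0.016), and factors from a trimmed mean turned SPRY2 (-0.00076). With libraries left out, changes ranged from -0.24 to 0.25 (DUSP4), -0.19 to 0.31 (SPRY2), -0.064 to 0.24 (SPRED1), -0.011 to 0.89 (ETV4), -0.016 to 0.32 (ETV5), -0.0053 to 0.23 (PHLDA1), -0.041 to 0.45 (CEMIP2), -0.096 to 0.011 (PDCD7), -0.53 to 0.27 (CCND1), -0.36 to 0.17 (SPRED2), -0.31 to 0.19 (SPRY1), -0.59 to 0.054 (DUSP9), -0.081 to 0.26 (ARAF) and -0.62 to 0.82 (JUN). NRAS kept its sign in each setting run, between -0.36 and -1.03. Over the 10 genes, 30 values in other settings turned in sign, 160 kept sign and side of the threshold, and 6 newly passed it. The paired values rest on the labelled numbers, and among the genes named, the replicate block changed the calls of NRAS, PLAUR, PMEL and KRT17; the other tested genes named kept theirs. Voom with the block also called EPHA2, MAFF and IER3 higher (adjusted p = 0.0232, 0.015 and 0.0417), and the filter of 10 FPKM with the block called EPHA2 (0.0281). Each of these fits also called 1 gene of the other ERK-dependent list lower. For these moves the cause was not tested. Depth limits ETV5 and SPRY4 most, with 55 and 59 fragments in their lowest libraries.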
